A study of Oryza sativa with 2 samples.

Results

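WRKY62 and WRKY76 are a pair of rice transcription factor genes whose leaf transcripts are described here in seedlings that carry an OsEATB transgene. The genes were found by synonym in the rice gene table, where they stand as LOC4347070 (WRKY62, also named XB10) and LOC4347069 (WRKY76), and both lie on chromosome 9. They were chosen by their own log2 ratios, for a higher signal in the transgenic leaves, so that these ratios are a description and carry no test. They are 2 of the 6 genes with a name of WRKY plus a number that have a probe set, and 2 of 17905 genes with a probe set of their own. WRKY62 and WRKY76 are each read by 1 probe set. The other 4 genes so named, WRKY9, WRKY24, WRKY51 and WRKY71, serve as context with 5 probe sets. Family members without such a name in the gene table, WRKY45 and WRKY13 among them, are not covered. The 6 named genes therefore do not stand for the family.

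WRKY factors are a large plant family named after a short amino acid stretch in their DNA-binding domain, and they bind W-box elements in promoters. WRKY62 and WRKY76 belong to the small subgroup IIa, to which WRKY71 belongs as well. In rice, WRKY62 and WRKY76 are known mainly as repressors of defence against blast fungus and bacterial blight. WRKY62 was found as a protein that binds XA21, a receptor kinase of bacterial blight resistance, and raised WRKY76 has been tied to cold tolerance.

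Leaf RNA of the indica cultivar 9311 was measured on 1-colour oligonucleotide arrays, with 1 array of nontransgenic plants and 1 array of OsEATB transgenic plants. OsEATB encodes an ERF-family transcription factor. Each group stands for leaves of 10 plants with 4 leaves, per the labels. All plants were grown under what the labels call normal conditions, at 28 °C with 14 h of light and 10 h of darkness. The sources used here do not give the promoter of the transgene or the number of transgenic lines. A single array per group allows no test between the groups and none was run, and this number of arrays is what limits the precision. In whole leaves, more cells with a transcript and more transcript per cell cannot be told apart.

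The values are the deposited log2 signals, and a log2 ratio is the transgenic minus the nontransgenic value. Unlogged, the arrays had the same trimmed mean of 500.1, and their median log2 signals were 5.16 and 5.32. Log2 signals below the 40th percentile of an array were raised to it, to a floor of 4.41 in nontransgenic and 4.61 in transgenic leaves, and a ratio with 1 side at the floor is a bound. A gene passed the level filter if its signal reached the median of an array, which 15192 genes did. The leaf label was checked with 7 photosynthesis genes with a probe set. RBCS1 did not pass the filter, and the other 6 did, with log2 signals that ran from 15.26 to 15.86 in nontransgenic and from 15.75 to 16.26 in transgenic leaves. Of 4 seed genes with a probe set 1 passed the filter, of 4 root genes 3, and of 6 flower genes 4. The highest of these, the root gene NAAT1, stood at 13.42 and 12.40. The part of other organs in the ratios was not tested.

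The log2 signal of WRKY62 was 4.91 in nontransgenic and 6.68 in transgenic leaves. It was thus below the array median in the nontransgenic leaves, by 0.25 on the log2 scale and only 0.50 above the floor, and 1.36 above the median in the transgenic leaves. Its linear signal was 30.1 against 102, which is 3.39-fold higher with OsEATB, a log2 ratio of 1.76. The probe set moved from percentile 46.6 of the nontransgenic array to percentile 64.7 of the transgenic array. The sources used here hold no detection call for it, and its gain starts from a signal near background.

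The log2 signal of WRKY76 was 7.27 in nontransgenic and 8.80 in transgenic leaves. Both values were clear of the floor, by 2.86 and 4.18. The linear signal was 155 against 445, which is 2.88-fold higher with OsEATB, a log2 ratio of 1.52. In the ranking of each array, it went from percentile 68.4 to percentile 77.3. The WRKY76 ratio therefore rests on brighter signals than the WRKY62 ratio, on both arrays.

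**Figure D1:**
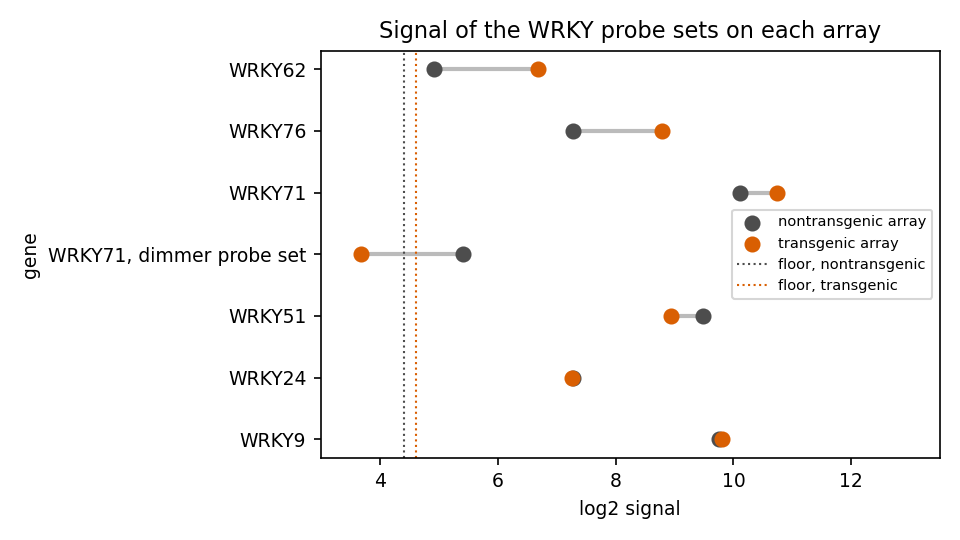
Log2 signal (x axis) of the 7 WRKY probe sets (y axis) for nontransgenic (grey) and transgenic leaves (orange), with 1 array per group and the floor of each array as a dotted line. WRKY62 and WRKY76 lie to the right on the transgenic array, WRKY24 and WRKY9 nearly coincide, and the dimmer WRKY71 probe set falls below the floor on the transgenic array.

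The other named WRKY genes had smaller ratios on the brightest probe set of each. WRKY71, which in rice aleurone represses gibberellin-induced amylase expression, stood at 10.11 and 10.74, a log2 ratio of 0.63 on its brighter probe set. Its dimmer probe set went the opposite way, from 5.41 to 3.69, a log2 ratio of -0.80 or lower because the transgenic value was below the floor. The direction of WRKY71 is therefore not settled, and the mean over its probe sets was -0.08.

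WRKY51, which acts with WRKY71 in aleurone, was lower in the transgenic leaves. Its log2 signals were 9.48 and 8.94, a log2 ratio of -0.55. WRKY24, a repressor of gibberellin and abscisic acid responses in aleurone, was nearly level at 7.28 and 7.26. WRKY9 was at 9.75 and 9.81, a log2 ratio of 0.06.

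Of the 6 named WRKY genes, all of which passed the filter, 2 were higher by 2-fold or more and 0 were lower by as much. The 2 are WRKY62 and WRKY76, which were picked for this. Of all genes that passed, 6.07% were higher by 2-fold or more and 4.44% were lower by as much. Since the same contrast chose the pair, nothing is read from their count. The median log2 ratio of the other 4 WRKY genes was 0.02, beside -0.01 over all genes, and 0 of these 4 reached 2-fold in either direction on the brightest probe set. The dimmer WRKY71 probe set, taken without the floor, had -1.72.

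The ratios of the pair were set beside those of genes of like brightness, as dim genes vary more. Among dim genes, the level filter can be passed through either array alone, which favours large ratios there. WRKY62 passed only through the transgenic array, the array on which it was picked as high. WRKY62 ranked 251 from the top among 15192 genes. Among the 500 genes nearest to it in mean signal, 14.8% were higher by 2-fold or more and 14.6% were lower by as much, and 36 genes had a ratio as high as its own. The central 95% of these 500 ratios ran from -2.21 to 2.58.

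WRKY76 ranked 367 from the top. Among the 500 genes nearest to it in mean signal, 4.00% were higher by 2-fold or more and 5.60% were lower by as much, and 12 genes had a ratio as high as its own. The central 95% of their ratios ran from -1.46 to 1.48. Since both genes were picked for high ratios, their place among like genes is a description from which nothing is read.

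Scatter between probe sets that read 1 gene on the same arrays is the only internal measure of error. It does not hold the spread between plants or between hybridisations. Among the 200 genes with several probe sets nearest in brightness to WRKY62, the SD of a log2 ratio was 0.91. Near WRKY76 this SD was 0.68, also over 200 genes. WRKY62 and WRKY76 have only 1 probe set each and no second reading, and because they were picked for their ratios, these are not set against the SDs. Of 29 genes near WRKY62 whose brightest probe set was at least 2-fold higher, the next probe set was also above 0 in 18 and at least 2-fold higher in 13. Near WRKY76, 6 genes were at least 2-fold higher on the brightest probe set, and the next was above 0 in 5 and at least 2-fold higher in 3.

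**Figure D2:**
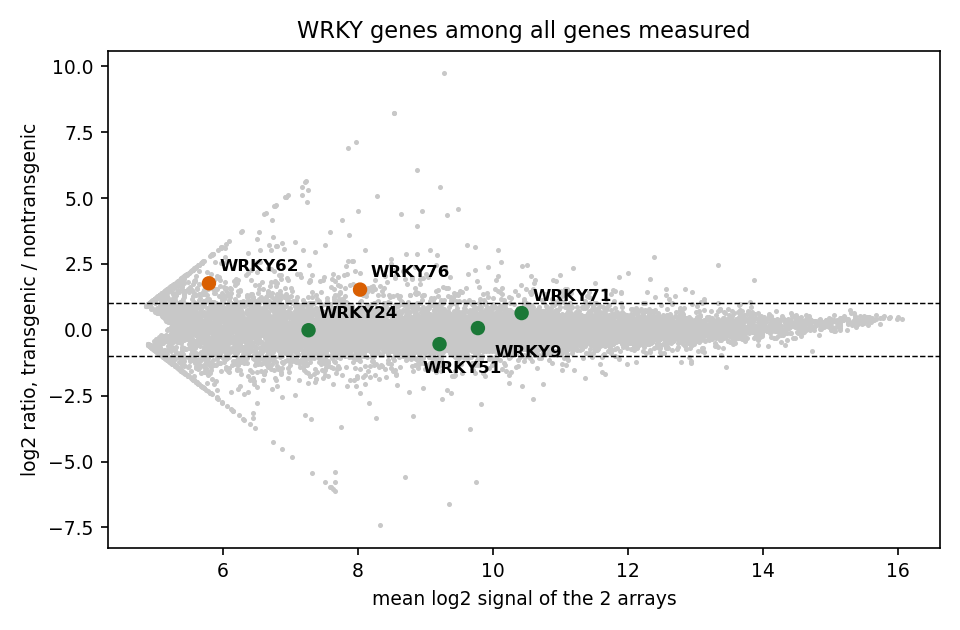
Log2 ratio of transgenic over nontransgenic (y axis) against the mean log2 signal of the 2 arrays (x axis) for 15192 genes (grey), with WRKY62 and WRKY76 in orange, the other WRKY genes in green and 2-fold as dashed lines. WRKY62 lies in the dim region where ratios spread widely, and WRKY76 lies in a brighter region where they spread less.

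WRKY76 and WRKY62 are direct neighbours on chromosome 9 in the gene order of the reference, with 0 listed genes between them. The rule that picked them did not use position. The gene next to WRKY76 on the outer side, LOC4347068, had log2 signals of 7.68 and 7.61, a log2 ratio of -0.07. Next to WRKY62 lies CIPK16, which encodes a CBL-interacting protein kinase, at 8.12 and 8.26, a log2 ratio of 0.14. Neither of these outer neighbours reached 2-fold.

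Among the 20 genes in the reference within 10 places of the pair, 11 passed the filter. Their log2 ratios ran from -1.26 to 0.24 with a median of -0.07, and 0 of them were at least 2-fold higher, where 6.07% of all genes were. So few genes cannot show that the higher signal stops at the pair. The 1 gene at least 2-fold lower was LOC4347074, at 13.56 and 12.30. LOC4347077 had a probe set that did not pass the filter, at 3.09, below the floor, in nontransgenic and 5.16 in transgenic leaves. Across the genome, 7630 adjacent pairs had both genes measured. At least 1 gene was 2-fold higher or more in 798 of them, and both were in 50, or 0.655% of all pairs. WRKY76 with WRKY62 is 1 of these 50 by the way they were picked, and nothing is read from that.

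**Figure D3:**
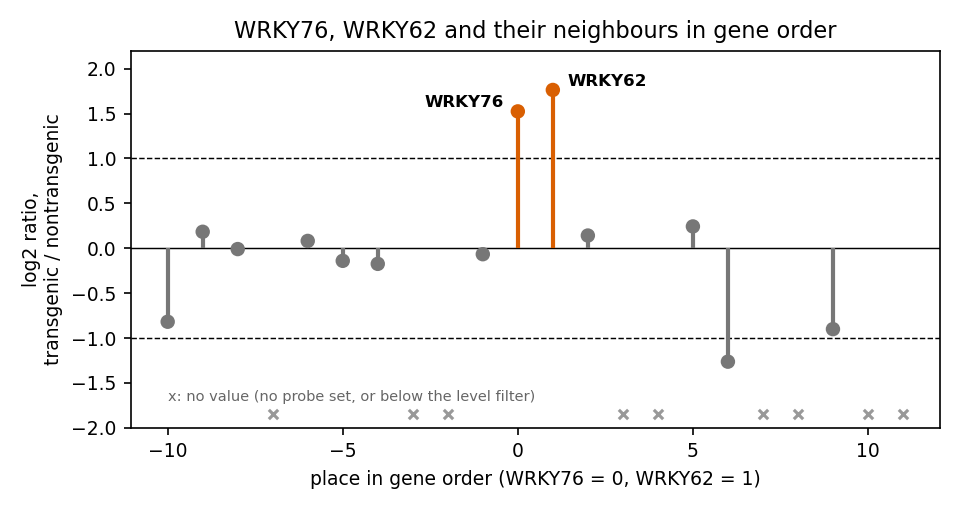
Log2 ratio of transgenic over nontransgenic (y axis) for genes within 10 places of WRKY76 and WRKY62 on chromosome 9, in gene order (x axis). The pair is in orange, other measured genes are in grey, and 2-fold is shown as dashed lines. Crosses mark genes with no probe set of their own or with one below the level filter. The pair stands above 1.5, and the 11 measured neighbours lie between -1.26 and 0.24.

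The genes with the most similar pair of signals were sought among 2147 genes with a descriptive name, by the Euclidean distance between log2 signals over the 2 arrays. With 2 arrays this likeness says only that level and ratio are close. A match to genes picked for their rise selects genes that rise too, so nothing is read from the ratios of the matched genes. Nearest to WRKY62 was MSH5, a meiotic MutS homologue, at 4.93 and 6.81 and a distance of 0.13. It was followed by the lipoxygenase gene LOX9, also named CM-LOX2, at 4.95 and 6.92, and the calmodulin-like gene CML24, at 5.01 and 6.91. Their distances were 0.24 and 0.25. MSH5, LOX9 and CML24 were all below the array median in nontransgenic leaves. Like WRKY62, they passed the level filter only through the transgenic array.

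Nearest to WRKY76 was the type-A response regulator gene RR4, at 7.06 and 8.80 and a distance of 0.21. The next was SL, which encodes the cytochrome P450 CYP71P1 that makes serotonin from tryptamine, at 7.51 and 9.16 and a distance of 0.44. The aquaporin gene PIP2-5 followed at 7.67 and 8.61, also at 0.44. Its log2 ratio of 0.94 was below that of WRKY76.

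A set of 5 gene lists of the defence pathways around WRKY62 and WRKY76 was then read, in the order of receptor, signalling and output. Their counts stand beside the shares of 6.07% higher and 4.44% lower over all genes, and with so few members nothing particular to a list is read from them. Of the XA21 list, 2 genes besides WRKY62 were measured. XB3, a ubiquitin ligase that binds XA21, was at 4.60 and 5.996, a 2.62-fold higher signal from near the floor. Its log2 ratio fell below 2-fold, to 0.84 with the floor at the array median and to 0.98 with log2(signal + 16). XB15, a protein phosphatase that attenuates XA21 signalling, was at 10.61 and 10.21, a log2 ratio of -0.41. The ratios of XB3 and XB15 had opposite signs and rest on 1 probe set each. XB3 passed the level filter only through the transgenic array, on which it was high, so nothing is read from the difference in direction.

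In the list of chitin perception and defence kinases, 10 genes were measured, of which 1 was higher and 1 was lower by 2-fold or more (6.07% and 4.44% over all genes). The chitin receptor gene CEBIP was 3.42-fold higher, at 10.63 and 12.40. RBOHB, which encodes an NADPH oxidase that makes reactive oxygen species, was 2.38-fold lower, at 10.32 and 9.06. The small GTPase gene RAC1 had a log2 ratio of -0.64 and the scaffold gene RACK1A one of -0.35. MPK6, a mitogen-activated protein kinase gene, was level at 10.99 and 11.00, and the chitin-binding receptor gene LYP4 had -0.65. The name CERK1, a receptor kinase of chitin signalling, matched 2 genes, LOC4346173 with a log2 ratio of 0.29 and LOC9270778 with -0.50. The median of the 10 was -0.40, beside -0.01 over all genes, and 3 of the 10 had a ratio above 0, as 48.6% of all genes did.

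The salicylate and NPR1 branch had 6 measured genes, of which 0 reached 2-fold in either direction and 5 had a ratio above 0. Over all genes, 10.5% reached 2-fold in either direction and 48.6% had a ratio above 0. NH1, the rice NPR1 gene, stood at 8.90 and 9.17, and NH3, a related gene, at 9.70 and 10.47, the highest ratio of the list at 0.77. The 4 probe sets of NH3 all had ratios above 0, from 0.28 to 0.98. The bZIP factor gene TGA2.1 had a log2 ratio of 0.10 and the chaperone partner genes RAR1 and SGT1 had 0.29 and -0.20. The list median was 0.28. WRKY45 and WRKY13, which belong to this branch, were matched by no name and are not analysed here.

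Among 5 measured pathogenesis-related genes, 2 were higher and 2 were lower by 2-fold or more (6.07% and 4.44% over all genes), and the median was 0.14. The higher members were chitinase genes, LOC4342115 at 5.29 and 7.38 and LOC4349267 at 7.19 and 8.30. The 3 probe sets of LOC4349267 disagreed in direction, and their mean log2 ratio was 0.25. PBZ1, a pathogenesis-related gene of the PR10 class, and the chitinase gene Cht11 had log2 ratios of -1.82 and -2.22. Of 11 measured diterpenoid phytoalexin genes, 1 was higher and 4 were lower by 2-fold or more (6.07% and 4.44% over all genes), and the median was -0.92. That median is the value of KSL10, a bound because its transgenic signal was at the floor. KSL10 ranged from -1.18 to -0.22 over the processing settings. CPS2, CYP71Z6, KSL5 and CYP76M6 were the lower members, the last as a bound. CYP99A2 was the higher one, also as a bound, and its log2 ratio was 0.99 with the floor at the array median. CYP76M8 was level at a log2 ratio of 0.002. KSL7 had 0.08 on its brighter probe set and -1.61 on the other. In rice literature WRKY62 and WRKY76 have been placed upstream of such genes as repressors. These arrays give the ratios side by side and cannot tie the one to the other.

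**Figure D4:**
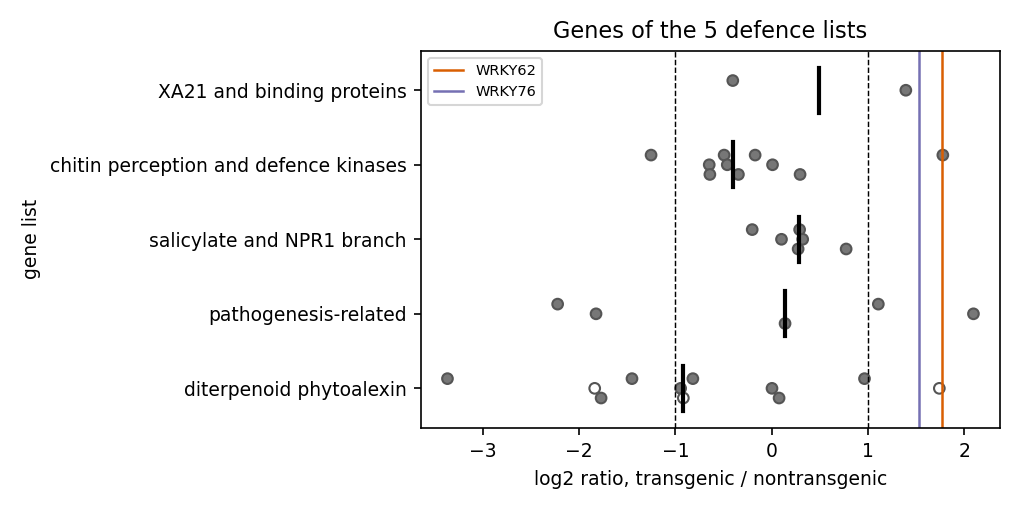
Log2 ratio of transgenic over nontransgenic (x axis) for each measured gene of the 5 defence lists (y axis), without the WRKY genes, with list medians as black bars, 2-fold as dashed lines, bounds as open circles and the ratios of WRKY62 and WRKY76 as coloured lines. Most phytoalexin genes lie left of 0, the salicylate and NPR1 genes lie near 0, and the pathogenesis-related genes lie on both sides.

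The ratios of the pair were recomputed with other floors, scalings and filters. WRKY62 ranged from 1.36 to 1.78 over the 9 alternatives that gave it a value, and WRKY76 from 1.43 to 1.61 over 10. Both stayed at least 2-fold higher in each, but not every alternative could move them. Taking away the floor or the level filter, or averaging over probe sets, could not change either ratio. Nor could leaving out probe sets with _s_ or _x_ in their names. Each gene has 1 probe set, without such a mark and with signals above the floor on both arrays, so those settings are no check. For WRKY76, a floor at the array median and a filter at the 75th percentile could not change the ratio either. Its signals lay above that floor, and that filter can only drop a gene with 1 probe set. With the floor at the array median, WRKY62 fell to 1.52, level with WRKY76, and it dropped out where the filter was raised to the 75th percentile. The order of the pair, WRKY62 above WRKY76, was turned by 2 of these settings and is not a stable feature. Every alternative uses the same arrays, and none adds a replicate.

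**Figure D5:**
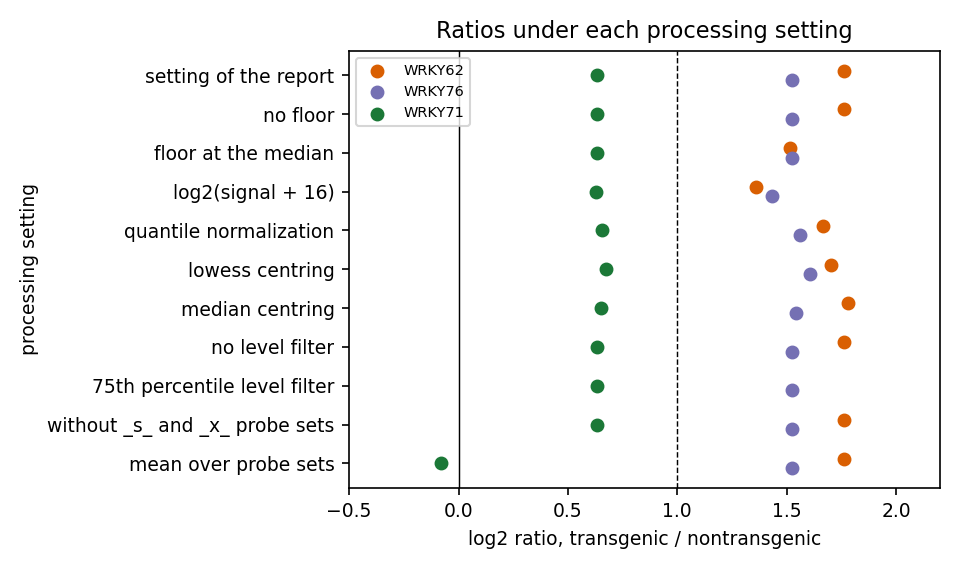
Log2 ratio of transgenic over nontransgenic (x axis) for WRKY62, WRKY76 and WRKY71 under each processing setting (y axis), with 0 as a solid and 2-fold as a dashed line. WRKY62 and WRKY76 stay right of the 2-fold line wherever they have a value, while WRKY71 moves from 0.63 to -0.08 when its probe sets are averaged.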

How the data were processed

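The deposited values are log2 signals of 1 array per group, with MAS5 named in the submitters' processing notes. The sources used here do not give its version, scaling or detection calls. All columns were mapped to a group. Of the 57381 probe sets per array, 187 were controls and were set apart, 22436 had 1 gene in the platform's table, and 95 had several and were not named. The rest, the larger part of the array, had no gene there and are in no gene count. Names came from a reference of rice genes (assembly ASM3414082v1), used for names and gene order only. Signals were floored at the 40th percentile, genes had to reach the array median on at least 1 array, and the probe set with the highest mean signal stood for a gene. The threshold was 2-fold. Because the symbol column named only 77 measured genes, synonyms counted as names in the search for similar genes.

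The members and lists were chosen with earlier results of these data known. The text names the pair, all other genes named WRKY, the genes next to the pair, the 3 most similar genes each, and list members at 2-fold. It also names some other list members, which were not chosen by a fixed rule. List counts and medians use all measured members. LOC4347074 and LOC4347077 were named after their values were seen. List names matched several genes in some cases, and all were kept except an actin gene that shares the name RAC1. The lists held 8, 19, 16, 17 and 19 names, of which 3, 11, 9, 7 and 17 were found. A planned view of the family by protein sequence was not run, and no sequences are shown. The counting of 2-fold ratios was checked on simulated arrays with known changes, which says nothing on the spread between plants. Python 3.11.15, pandas 2.3.3 and statsmodels 0.14.6 were used.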

Additional observations from a re-analysis of the deposited data

How the results depend on the processing

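No paired analysis was possible because each group has 1 array. WRKY62 and WRKY76 kept their direction under every alternative that gave a value, though some of these could not change their ratios. Their lowest values, 1.36 and 1.43, came with log2(signal + 16). With the 75th percentile level filter WRKY62 and WRKY24 gave no value. Of the 4 named WRKY genes left, 1 was at least 2-fold higher, in place of 2 of 6. Among all genes, 297 of 10556 or 2.81% were, in place of 922 of 15192 or 6.07%. At a threshold of 3-fold the counts were 1 of 6 and 320 of 15192, and at 1.5-fold they were 3 of 6 and 1824 of 15192. The counts of named WRKY genes include the picked pair, and nothing is read from them. The median log2 ratio of the 6 named WRKY genes was 0.35, and 0.023 with the mean over probe sets, where WRKY71 went from 0.63 to -0.08. This median includes the picked pair, so nothing on the family is read from it. Over the other 4 genes the median was 0.02, and over all genes -0.01. WRKY24, at -0.02, was at 0.02 with quantile normalization and at 0.04 with lowess centring. The WRKY62 signal near the floor of the nontransgenic array limits its ratio.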
